A study of Mus musculus with 2 samples.

Results

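The genes described here code for the initiation and elongation factors of cytosolic protein synthesis. They were chosen by name: every gene spot whose gene name in the scanner files began with Eif or Eef was taken, apart from the sex-linked pair Eif2s3x and Eif2s3y. The rule gave 63 of the 27976 genes on the array, read by 138 of its 41174 probes, and each gene was placed in the factor complex it belongs to. Of these, 60 genes with 98 probes were well above background on both arrays in at least 1 channel and could be compared, out of 11759 genes and 15117 probes in all. The rule used names and no measured value.

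RNA came from primary epidermal keratinocytes of FVB/NJ mice at day 20 after birth. The wild-type mice were compared with K14-caSmad1 mice, which carry a constitutively active Smad1, a transcription factor of the bone morphogenetic protein pathway, under the keratin 14 promoter. That promoter drives expression in basal keratinocytes, so the transgene is not targeted to the other cells of the epidermis. On both 2-colour arrays wild-type RNA was labelled with Cy3 and K14-caSmad1 RNA with Cy5, and there was no dye swap, so that genotype and dye cannot be told apart. Per the labels these are biological replicates 1 and 2, but they name neither the number nor the sex of the animals. Between the arrays the log2 ratio differed with an SD of 0.0946 over probes with 1 spot, where spot noise alone gives 0.109, and with an SD of 0.0522 over repeated probes, where it gives 0.0353. These comparisons point in different directions. Both arrays together were treated as 1 sample. Their difference had earlier been read as close to spot noise, and the labels do not name the animals behind each array. A gene was called higher or lower only if its ratio passed a fold threshold in the same direction on both arrays, and p-values from limma measure only how well the arrays repeated.

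Initiation begins when eIF2 carries the initiator tRNA and GTP to the small ribosomal subunit, where eIF1, eIF1A, eIF3 and eIF5 help to find the start codon. The mRNA arrives through eIF4F, made of the cap-binding protein eIF4E, the scaffold eIF4G and the helicase eIF4A. eIF2 leaves the ribosome bound to GDP, and eIF2B is the exchange factor that loads it with GTP again. Stress kinases phosphorylate eIF2 so that it blocks eIF2B, which lowers general translation and favours a few mRNAs such as that of Atf4. During elongation eEF1A delivers aminoacyl-tRNAs and eEF2 moves the ribosome along the mRNA.

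The levels below were read by DNA probes of 60 bases, and the 6 shown are those on which the account turns. The first 3 are the only tested probes of their genes and gave the lower values of the eIF2B subunits delta and epsilon and of eIF3d. The last 3 lie upstream of their gene's brightest probe and gave a different value from it. Each is written 5′ to 3′ as deposited and reads without a stop codon in at least 1 frame, and no base is capitalised because no part of a probe is singled out. Positions are on the mm9 mouse build as the scanner files give them.
Eif2b4, chr5:31490027-31490086: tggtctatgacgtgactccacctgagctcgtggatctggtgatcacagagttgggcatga
Eif2b5, chr16:20507091-20507150: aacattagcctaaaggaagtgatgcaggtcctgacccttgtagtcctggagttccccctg
Eif3d, chr15:77790003-77790062: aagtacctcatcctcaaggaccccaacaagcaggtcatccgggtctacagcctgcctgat
Eif3b, chr5:140917699-140917758: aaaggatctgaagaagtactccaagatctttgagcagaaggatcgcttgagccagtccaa
Eef1a1, chr9:78327779-78327838: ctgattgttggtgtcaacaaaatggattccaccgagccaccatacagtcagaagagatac
Eif4a2, chr16:23110158-23110217: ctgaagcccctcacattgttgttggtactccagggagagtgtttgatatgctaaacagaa

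The translation factors did not move as a block. Of the 60 genes compared, 3 were at least 1.5-fold higher in K14-caSmad1 on both arrays, 14 were at least 1.5-fold lower and 43 lay between. Over all genes tested, 13.2% were higher and 19.5% lower by the same rule, against 5% and 23.3% of the translation factors. At 2-fold, 0 members were higher, against 4.08% of all genes, and 10 were lower, which is 16.7% of the members against 9.81% of all genes. The median log2 ratio of K14-caSmad1 over wild type was -0.14 for the members and -0.03 for all genes, with 37 members below 0 and 23 above it. Without the 4 eIF2B genes, which were set aside here after their values were seen, 10 of 56 members (17.9%) were lower at 1.5-fold and 12.5% at 2-fold. At 1.5-fold that share lay below the 19.5% of all genes. With normexp fitted on all spots 7 of the 56 (12.5%) were lower at 1.5-fold, beside 7.3% of all genes. The share was also the larger one without the detection filter (17.2% beside 8.75%) and with both channels above background (18.2% beside 17.4%). Under every other alternative it was the smaller one, for example 17.9% beside 25.3% with the processed signals. The direction of the whole list depends on the scaling. With plain median centring in place of loess the median of all genes moved from -0.03 to 0.22, that of the members moved to 0.12, and 14 members were then higher and 10 lower, beside 24.8% and 12.7% of all genes. Then 13 members given below 0 here, with log2 ratios no lower than -0.28, lay above 0.

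limma gave 57 of the 60 members an adjusted p under 0.05, 21 higher and 36 lower. It did so for 87.1% of all genes tested, so a limma call alone does not set a member apart here.

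**Figure D1:**
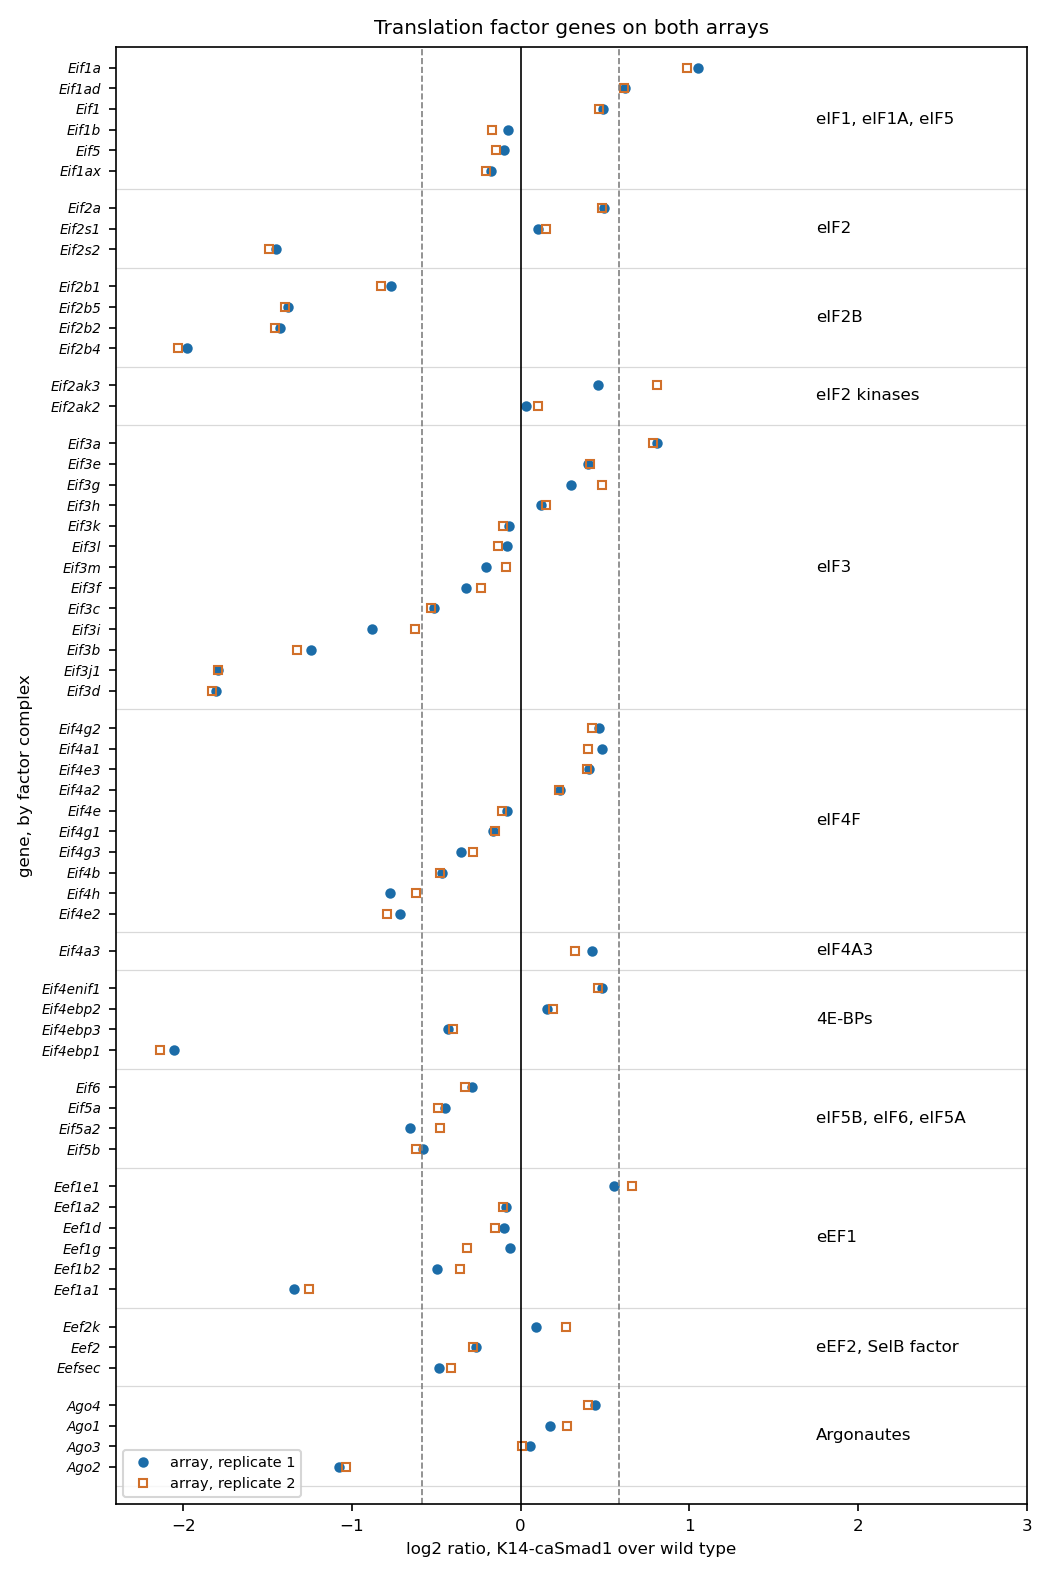
Log2 ratio of K14-caSmad1 over wild type for the 60 translation factor genes compared, grouped by complex, with 1 point for each array (filled circles for replicate 1, open squares for replicate 2). The solid line is 0 and the dashed lines mark 1.5-fold; the 4 eIF2B genes lie left of the lower dashed line on both arrays, while eIF3, eIF4F and eEF1 hold genes on both sides of 0.

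The clearest group was eIF2B, the exchange factor of eIF2. All 4 of its tested subunit genes were lower in K14-caSmad1, by 1.74- to 4.01-fold, 3 of them past 2-fold, with a median log2 ratio of -1.41. Of all genes 19.5% were lower at 1.5-fold and 9.81% at 2-fold. Eif2b4, which codes for the regulatory delta subunit, had a normalized log2 signal of 15.21 and 15.04 in wild type and 13.23 and 13.01 in K14-caSmad1, for replicates 1 and 2 in that order here and below. Its log2 ratios were -1.98 and -2.03, and both K14-caSmad1 values lay below both wild-type values. Eif2b2, for the regulatory beta subunit, went from 14.17 and 13.998 to 12.75 and 12.54, a 2.72-fold difference. Eif2b5, for the catalytic epsilon subunit, went from 13.18 and 13.00 to 11.81 and 11.60, a 2.62-fold difference. Eif2b1, for the regulatory alpha subunit, differed least, from 13.51 and 13.44 to 12.74 and 12.61, or 1.74-fold. The channels did not overlap for any of these 4 genes. The share of all genes without such overlap was not counted, so this does not set genes apart, here or below. The limma SE of the log2 ratio lay between 0.025 (Eif2b5) and 0.029 (Eif2b1), with adjusted p-values from 2.57e-05 for Eif2b4 to 0.000108 for Eif2b1.

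The fifth subunit gene, Eif2b3, which codes for gamma, had 1 probe that was not well above background on any array and was not compared. Each of the other 4 eIF2B values rests on 1 tested probe, so no other probe of the gene checks it. The other probe of Eif2b4 was well above background in wild type on only 1 array and was left out. Eif2b2, Eif2b4 and Eif2b5 kept their lower call under each of 10 other ways of processing the arrays. Eif2b1 kept it under 8 and lost it with normexp fitted on all spots, at a mean of -0.68, and with median centring, at -0.52. Some of the 10 could not end these calls. Leaving out a replicate cannot end a call that needs both arrays, and averaging probes cannot change a gene with 1 tested probe. The other detection filters left these values unchanged, and the processed signals and the deposited table hold nearly the same ratios.

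**Figure D2:**
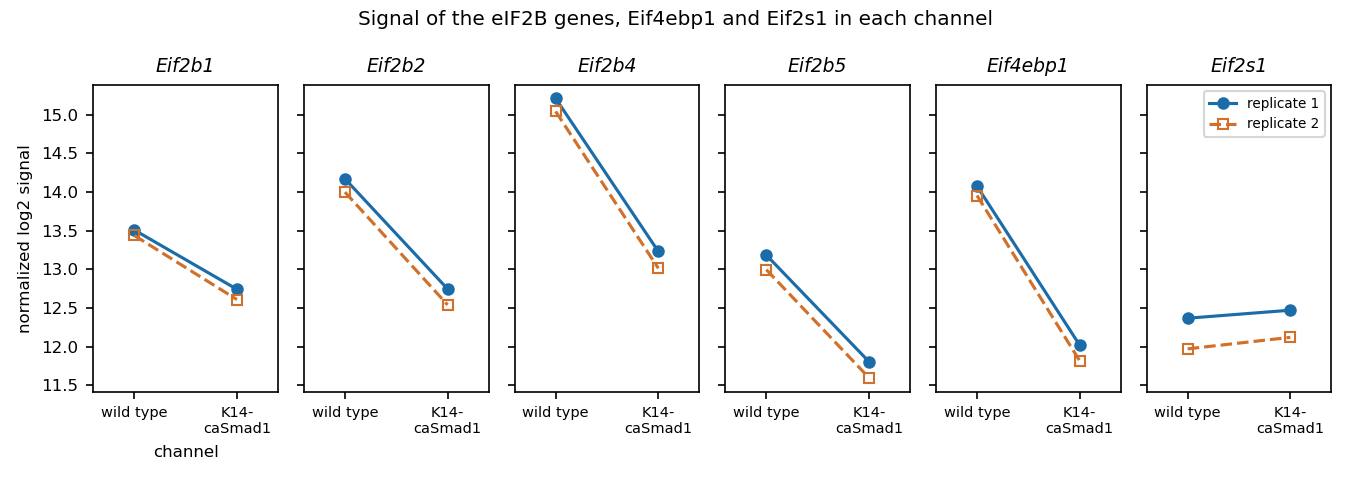
Normalized log2 signal of the 4 tested eIF2B genes, of Eif4ebp1 and of Eif2s1 in the wild-type and the K14-caSmad1 channel, with 1 line for each array. The first 5 panels fall on both arrays, while Eif2s1 stays nearly level, with log2 ratios of 0.10 and 0.15. Levels are not comparable between panels, since each gene has its own probe.

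The substrate of eIF2B showed no common direction. Eif2s1, the gene of the alpha subunit of eIF2 that the stress kinases phosphorylate, had log2 ratios of 0.10 and 0.15, and its other probe averaged -0.15. Eif2s2, the gene of the beta subunit, was lower by 2.78-fold on its brightest probe, from 14.30 and 14.25 to 12.85 and 12.75, with log2 ratios of -1.45 and -1.49. Its other tested probe, which lies nearer the 3′ end by 1267 bases, averaged only -0.20 and was not called. The gene of the gamma subunit is outside the rule. Eif2a, an initiator tRNA-binding factor that is not part of the eIF2 trimer, had log2 ratios of 0.50 and 0.48, short of 1.5-fold.

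Of the 4 eIF2 kinases, 2 could be compared, and neither was called in the reported values. Eif2ak3, the gene of the endoplasmic reticulum kinase PERK, had log2 ratios of 0.46 and 0.81, and the arrays thus lay on either side of the 1.5-fold line. Its other probe averaged 0.18. Eif2ak3 was called higher with the scanner software's processed signals (1.02), in the deposited series table (1.02), with median centring (0.92) and on replicate 2 alone, so whether it is past the threshold depends on the processing. Eif2ak2, the gene of the double-stranded RNA sensor PKR, had log2 ratios of 0.03 and 0.10. Eif2ak1 (HRI, the haem-regulated kinase, 4 probes) and Eif2ak4 (GCN2, the amino acid sensor, 3 probes) were not well above background on both arrays of either channel.

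The factors that select the start codon included 2 of the 3 higher members, 33.3% of that group beside 13.2% of all genes. Eif1a, one of the genes for eIF1A, went from 11.81 and 11.69 in wild type to 12.86 and 12.68, or 2.03-fold on average, though replicate 2 alone, at 0.99, fell just short of 2-fold. Its other probe was higher too, by 0.59 on average and past 1.5-fold on both arrays. The X-linked gene for eIF1A, Eif1ax, moved far less: its brightest probe averaged -0.19 and its other probe 0.27. Eif1ad, whose product has an eIF1A-like domain, had log2 ratios of 0.62 and 0.61, just past the threshold, and 0.22 on its other probe.

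The remaining 3 of this group were not called. Eif1 had log2 ratios of 0.49 and 0.47 on its brightest probe. Its other probe averaged -0.74, but the files place that probe on chromosome 1, whereas the gene lies on chromosome 11. Eif1b averaged -0.12 and Eif5, whose product makes eIF2 hydrolyse its GTP, also -0.12.

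eIF3, the large scaffold on the small ribosomal subunit, was split. Of its 13 genes, all tested, 1 was higher, 4 were lower and 8 lay between, with a median log2 ratio of -0.15. These are 7.69% higher and 30.8% lower, beside 13.2% and 19.5% of all genes. Eif3d, whose product can bind the mRNA cap, was the lowest: 15.19 and 15.01 in wild type against 13.39 and 13.18 in K14-caSmad1, or 3.52-fold lower, on 1 tested probe. Eif3j1, for a loosely attached subunit, was lower by 3.47-fold, from 14.13 and 13.99 to 12.34 and 12.20, and its other tested probe was also lower, by -0.72 on average. Both probes of Eif3j1 passed 1.5-fold on both arrays, which makes it the eIF3 gene with the best support for a lower level.

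Eif3b, for a core subunit, was lower by 2.44-fold on its brightest probe, from 15.22 and 15.21 to 13.98 and 13.88. The other Eif3b probe, shown above and 1508 bases upstream, had log2 ratios of only -0.22 and -0.20. Eif3i, which binds Eif3b in the complex, had log2 ratios of -0.88 and -0.63 on its only probe. It passed the threshold narrowly on replicate 2. It kept the call under 6 of the 10 alternatives, most of which, such as leaving out a replicate, could not end it. Eif3a, the gene of the largest subunit, went the other way, from 11.20 and 11.18 to 12.01 and 11.96, or 1.74-fold higher. Its other probe, 9418 bases upstream, was above 0 as well, at 0.47.

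The other 8 eIF3 genes were not called and ranged from Eif3c at -0.52 to Eif3e at 0.41. Eif3c had another probe at -0.51 and one 17517 bases upstream at 0.38. Eif3e had another probe at 0.39, so that its probes gave nearly the same value. Eif3g was at 0.39, Eif3h at 0.13, Eif3k at -0.09, Eif3l at -0.11, Eif3m at -0.15 and Eif3f at -0.28. The genes of a single complex thus spanned a range from 3.52-fold lower to 1.74-fold higher.

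In eIF4F and its helicase cofactors 2 of 10 genes (20%) were lower, 0 were higher, and the median was -0.13. Of all genes 19.5% were lower and 13.2% higher. Eif4e, the gene of the main cap-binding protein, averaged -0.10 on its brightest probe and 0.65 on the other. Eif4e2, for a related cap-binding protein that represses translation, was lower by 1.69-fold, from 11.27 and 12.55 to 10.55 and 11.76. Within each array the difference was -0.71 and -0.79, while the channels overlapped across arrays, and its other probe averaged -0.17 and was not called. The call of Eif4e2 held under 6 of the 10 alternatives, some of which, such as leaving out a replicate, could not end it. Eif4e3, for another family member, averaged 0.40. The cap-binding genes therefore gave no value past 1.5-fold that a pair of probes shared.

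The scaffold genes stayed inside the thresholds on their brightest probes: Eif4g1 averaged -0.16, Eif4g3 -0.32 and Eif4g2, for a scaffold that does not bind eIF4E, 0.45. The helicase gene Eif4a1 had 3 tested probes at 0.44, 0.59 and -0.91. On the last of these only the wild-type channel was above background, so it gives K14-caSmad1 as at least 1.83-fold lower there, against the direction of the other probes. Its paralogue Eif4a2 averaged 0.23 on the brightest probe and 1.31 on the upstream probe shown above. Of the cofactors that stimulate the helicase, Eif4h was lower by 1.62-fold, with log2 ratios of -0.77 and -0.62 on 1 probe. That call was lost with normexp fitted on all spots (-0.59), without background subtraction (-0.57) and with median centring (-0.43). Eif4b averaged -0.47 on its brightest probe and 0.67 on the other. Eif4a3, a helicase of the same family that sits in the exon junction complex and not in eIF4F, averaged 0.37.

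The lowest member of all was Eif4ebp1, the gene of the binding protein that holds eIF4E away from eIF4G until the kinase mTOR phosphorylates it. Its log2 signal was 14.08 and 13.95 in wild type and 12.02 and 11.82 in K14-caSmad1. The log2 ratios were -2.06 and -2.14, which is 4.28-fold lower, with an SE of 0.032 and an adjusted p of 2.98e-05 by limma. The channels did not overlap, and the value rests on 1 tested probe at chr8:28385887-28385946 (mm9), since the other Eif4ebp1 probe was not above background. The other eIF4E-binding proteins did not share this: Eif4ebp2 averaged 0.18, Eif4ebp3 -0.42 and -0.21 on its 2 probes, and Eif4enif1, a transporter that takes eIF4E into the nucleus, 0.47. The difference between Eif4ebp1 and its paralogues was not tested.

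The late initiation factors and eIF5A lay below 0 on their brightest probes without a call in the reported values, with a median of -0.52 over 4 genes. With median centring they also lay below 0, but nearer to it, from -0.35 (Eif5a2) to -0.06 (Eif6). Eif5b, for the GTPase that joins the ribosomal subunits, averaged -0.60 on its brightest probe, just past 1.5-fold on the mean but not on both arrays. Its 4 other tested probes gave -0.75, -0.60, 0.24 and 0.41, so that they lay on both sides of 0. Eif5a, for the factor that helps ribosomes past stretches such as prolines and carries the amino acid hypusine, averaged -0.47 on the brightest probe and 0.91 on the other, 724 bases upstream. Eif5a2, its paralogue, averaged -0.57 and -0.19. With the processed signals and in the deposited table the value of Eif5a2 was -1.10, and it was then called lower. Eif6, which keeps free large subunits from joining, averaged -0.31 and -0.06.

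Among the elongation factors only Eef1a1 was called in the reported values, and its probes disagreed. The brightest probe went from 14.81 and 15.52 in wild type to 13.46 and 14.26 in K14-caSmad1, or 2.46-fold lower. The channels did not overlap on that probe. The other probe, shown above and 1394 bases upstream, had log2 ratios of 0.43 and 0.39. With the scanner software's processed signals, and in the deposited series table, the upstream probe is the brighter one and the gene's value turns to 0.42. No direction can be given for Eef1a1.

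The rest of eEF1 was not called in the reported values. Eef1e1, for an accessory protein of the aminoacyl-tRNA synthetase complex, came nearest, with 0.55 and 0.66, on either side of the 1.5-fold line. Eef1e1 was called higher with the processed signals (0.97), in the deposited table (0.97), with median centring (0.90) and on replicate 2 alone. Eef1b2, Eef1d and Eef1g, whose products form the complex that reloads eEF1A with GTP, averaged -0.43, -0.13 and -0.19. Eef1a2, the muscle and neuron form of eEF1A, averaged -0.09. Eef2, the translocase, averaged -0.27 on its brightest probe and 0.67 on the other, Eef2k, the kinase that inhibits it, 0.18, and Eefsec, which inserts selenocysteine, -0.45. With the processed signals and in the deposited table Eefsec was at -0.76 and was then called lower.

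The name rule also took 4 genes that are no translation factors. The files call the Argonaute genes Eif2c1 to Eif2c4, and their current names are Ago1 to Ago4; their products bind microRNAs. Ago2, which codes for the slicing Argonaute, went from 11.001 and 10.89 to 9.92 and 9.85, or 2.08-fold lower, and its other probe was lower as well, at -0.59 and past 1.5-fold on both arrays. Ago1 averaged 0.22 and Ago3 0.03. Ago4 averaged 0.42, with another probe at -0.01 and a further one that was above background only in K14-caSmad1, at least 1.67-fold higher. Without the Argonautes, 3 members were higher (5.36%) and 13 lower (23.2%) of 56, beside 13.2% and 19.5% of all genes.

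Many of these values depend on which probe is read. Of the 31 members with several tested probes, 12 had probes on both sides of 0, or 38.7%, against 35.1% of the 2821 such genes on the array. Of the 14 lower members, 8 had 1 tested probe and 6 had several, and in 2 of those 6, Eif3j1 and Ago2, another probe also passed 1.5-fold on both arrays. Among the 3 higher members this held for Eif1a alone. Members without a call could also have a dimmer tested probe past 1.5-fold on both arrays. It was higher for Eef2, Eif4e, Eif4b, Eif5a, Eif4a2 and Ago4, and lower for Eif5b, Eif4a1 and the off-chromosome probe of Eif1. The share of such genes on the array was not counted. The counts of calls thus depend on reading the brightest probe. By position along the gene, the probe nearest the 3′ end was the lower one in 10 of 22 members (45.5%) and in 1022 of 2259 genes overall (45.2%).

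**Figure D3:**
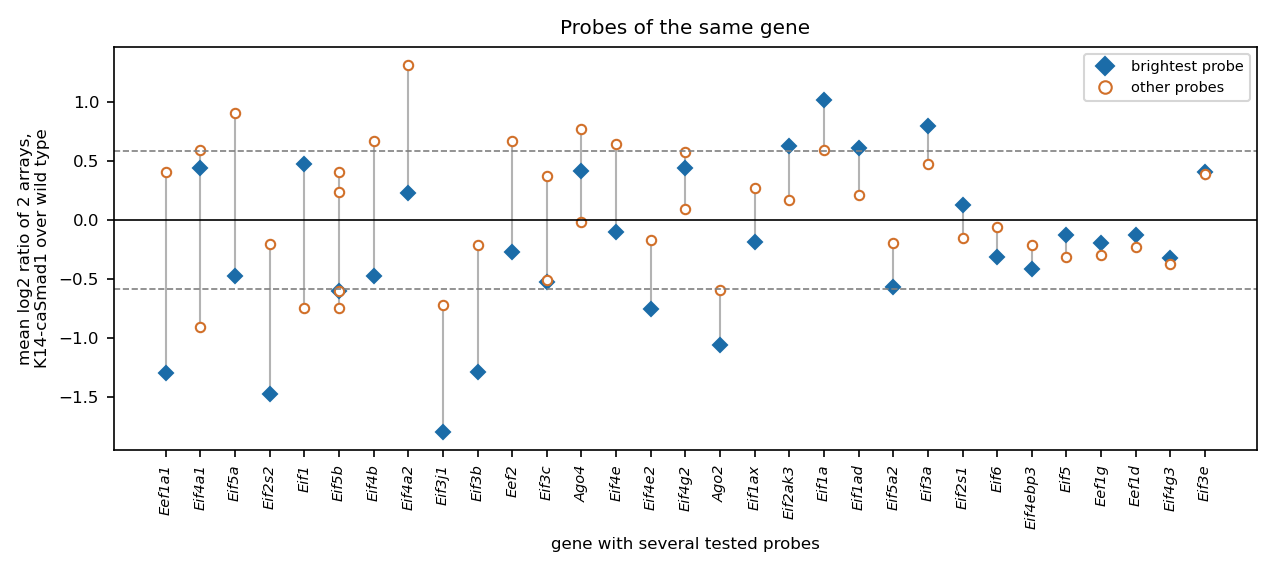
Mean log2 ratio of both arrays, K14-caSmad1 over wild type, for each tested probe of the 31 member genes with several, with the brightest probe as a filled diamond and the others as open circles joined by a line. Dashed lines mark 1.5-fold; Eef1a1, Eif4a1, Eif5a, Eif4b and Eif4a2 are spread widely, while the probes of Eif3e nearly coincide.

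The ratio also moved with base composition. Over all tested probes the median log2 ratio went from 0.18 for probes of at most 35% G and C to -0.24 for those between 50% and 55%, and Pearson's r across the 15117 probes was -0.192. Across the 98 member probes, which share arrays and targets, r was -0.253. Between the log2 ratio and the mean log2 intensity, r was -0.305 across the member probes and -0.0414 across all tested probes. Each gene was read by its brightest tested probe, and the part of intensity in the values was not tested. The probes of Eif2b4, Eif2b5 and Eif2b1 lie between 50% and 55%. Less the median of all probes in the same range, the log2 ratios were -1.77 for Eif2b4, -1.21 for Eif2b2, -1.15 for Eif2b5, -0.56 for Eif2b1 and -1.86 for Eif4ebp1. The part of base composition in these values was not tested, and Eif2b1 lies inside 1.5-fold after that subtraction. So do the lower call of Eif3i (-0.52) and the higher call of Eif1ad (0.51). Eif3g, which was not called, then lies outside 1.5-fold on the mean, at 0.63.

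**Figure D4:**
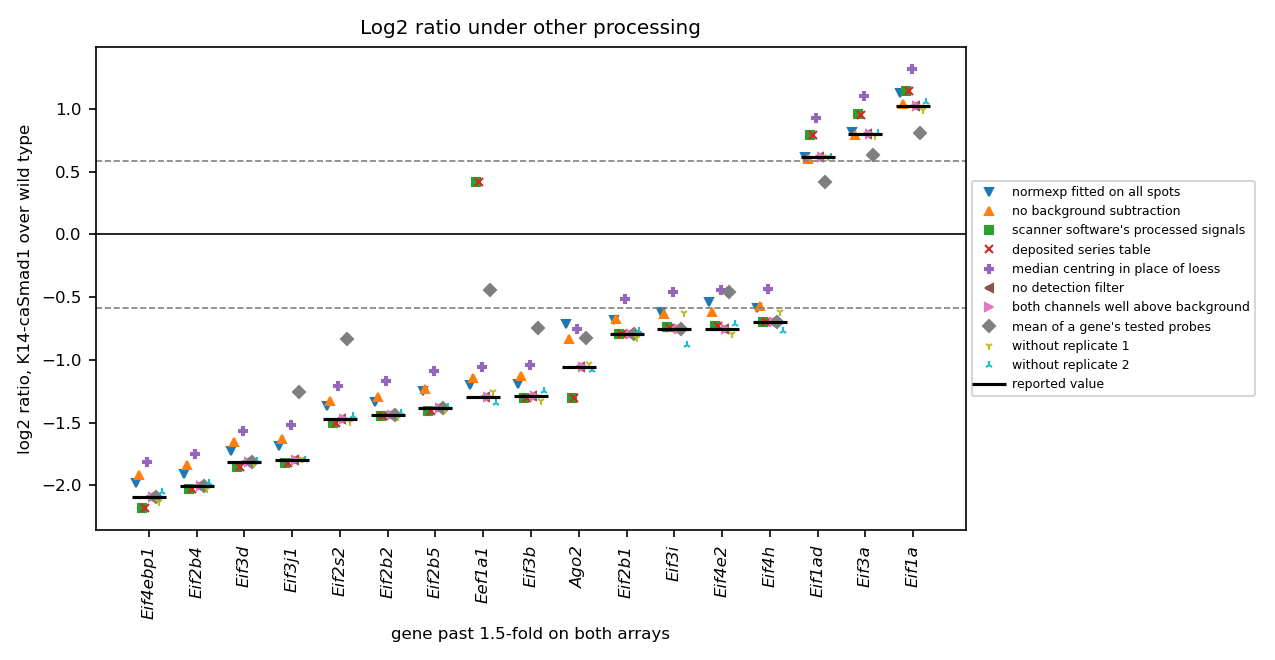
Log2 ratio of the 17 called members, K14-caSmad1 over wild type, as reported (black bar) and under 10 other ways of processing the arrays (symbols). Dashed lines mark 1.5-fold. In all, 8 lower and 2 higher genes keep their call throughout, and Eef1a1 changes sign. Leaving out a replicate cannot end a call.

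Around the factors, the genes that read out or control them were counted by the same rule. Of 13 known targets of the integrated stress response, the programme that follows a block of eIF2B, 3 were higher and 4 lower, with a median of -0.30. Chac1, which degrades glutathione and is a target of Atf4, was the lowest, with log2 ratios of -4.45 and -4.48. Ppp1r15a, the stress-induced subunit of the eIF2 phosphatase, was at -1.56 and -1.68. Phgdh, the first enzyme of serine synthesis, was higher at 1.57 and 2.02, though its other probes gave 0.60 and 0.78. Atf4 itself averaged -0.35 and was not called.

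Of 12 tested genes of mTOR and MNK control, 1 was higher and 2 lower. Mknk1, the gene of a kinase that phosphorylates eIF4E, was lower at -3.32 and -3.25, and its other probe at -2.63. Rheb, the GTPase that activates mTOR, averaged 0.89, and Larp1, which binds mRNAs of the translation machinery, -0.75 with other probes from -0.04 to 0.52. Of 12 poly(A)-binding and accessory factors 0 were higher and 2 lower, namely Tpt1, which binds eEF1A, at -1.96 and Pabpc1, the main poly(A)-binding protein, at -1.11 with another probe at -0.65.

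Of 20 tested genes of the cytosolic aminoacyl-tRNA synthetases and their complex, 2 were higher and 5 lower, with a median of -0.39. The largest were Cars at -1.80, whose other probes ran from -2.32 to -0.76, Hars at 1.20 and Nars at 1.08, the genes of the cysteine, histidine and asparagine enzymes. Of the 9 enzymes that make hypusine and diphthamide, the special residues of eIF5A and eEF2, 1 was lower, Dph1 at -0.74. Of the 10 mitochondrial translation factors 1 was lower, the ribosome recycling factor Mrrf at -1.23, with another probe at -0.93. Of 3 tested genes of termination and recycling, 0 were called. Over all these lists the share lower ran from 0% for termination and recycling to 30.8% for the stress response targets, beside 19.5% of all genes. The share higher ran from 0% to 23.1%, again for the stress response targets, beside 13.2% of all genes.

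In the 250 bases before the RefSeq start (GRCm38.p6), 48 of the 60 members had a sequence to search, on both strands. The letters GGCGCC were found in 14 of the 48 (29.2%) and in 2577 of 27025 promoters overall (9.54%). For the E-box letters CACGTG it was 9 of 48 (18.8%), against 6.05% overall. Of 11 lower members with a promoter, 3 held the former and 1 the latter, and of the 4 eIF2B genes 0 held either. The members searched were above background on these arrays, while the promoters overall were not limited to such genes, so these shares come from unlike sets. A match describes the letters only.

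Other measures moved between the channels beside these results, and their part in the values above was not tested. In RNA from a mixture of cells, fewer cells of a type and less RNA per cell cannot be told apart. Of 8 keratinocyte markers 7 were tested and 6 were higher in K14-caSmad1, with a summed signal of 321780 and 294371 in wild type and 592177 and 605731 in K14-caSmad1. Probes disagreed for some: Trp63, called higher at 1.69, had another probe at -0.78. Krt10, not called at 0.02, had another at 2.29. Of the melanocyte markers 4 of 5 tested were lower (sums of 6552 and 6226 against 3209 and 2742), of the fibroblast markers 3 of 4 (3751 and 3741 against 1284 and 1324), and of the endothelial markers 2 of 4 (2498 and 2363 against 1691 and 1551). In each of these 3 lists, 3 of the tested markers were well above background in wild type only, so they could enter only as lower and the K14-caSmad1 sums include background signal. Their differences are bounds, of at least 1.26- to 2.13-fold for the melanocyte, 1.48- to 3.53-fold for the fibroblast and 1.34- to 1.87-fold for the endothelial markers. Of the immune markers 2 of 3 were higher (9566 and 8650 against 14538 and 13233), and of 2 tested muscle markers 0 were called (2487 and 2470 against 1833 and 1741). Tyr, Pdgfra, Lum, Pecam1, Cdh5, Cd3e, Itgam and Dsg3 were among the markers not well above background. Spots well above background numbered 15570 and 16144 in wild type and 14412 and 15800 in K14-caSmad1. The tested probe of Smad1 itself had log2 ratios of 0.28 and 0.26; whether it reads the transgene is not given in the sources used here, so it does not check the labels.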

How the data were processed

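The arrays were Agilent whole mouse genome arrays, 1 slide with 2 arrays, each with 45018 spots (43379 gene spots, none saturated: 0). RNA was purified on columns and amplified in 1 round, per the labels' protocols. The deposited scanner files hold mean signal and local background intensity per channel and the processed signal, per the file headers, and a log10 ratio of Cy5 over Cy3. The deposited series table holds the same log10 ratios and differed from the ratio of the processed signals by at most 0.00397.

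From these deposited intensities, the log2 of K14-caSmad1 over wild type was computed in R 4.3.3 with limma 3.58.1 by normexp (offset 50, without 36 spots of replicate 1 marked as lying on non-uniform background) and loess within the array (span 0.3, control spots at weight 0). Feature outliers were left out and repeated spots averaged. A probe was tested if well above background on both arrays in either channel, and a gene was read by its brightest tested probe. limma's lmFit and eBayes tested the mean ratio against 0 with Benjamini-Hochberg adjustment over all 11759 genes at 0.05. The SD of the difference between the arrays was 0.0946 over 12287 single-spot probes, against 0.109 from spot noise, and 0.0522 over 99 repeated probes, against 0.0353. The arrays, which the labels call biological replicates, were counted as 1 sample. Their difference had earlier been read as close to spot noise, and the labels do not name the animals. The number of arrays limits the precision. A bound ("at least") sets the bright channel against the lowest signal well above background, or the dim probe's own where that is higher, and is open to dye bias.

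Names were updated through RefSeq (GRCm38.p6); 8475 probes kept the file's name. In the current names Eif3s10 is Eif3a, Eif3eip Eif3l, Eif3j Eif3j1, and Eif1ay is Eif1ax. Every gene taken by the name rule is given, and of each surrounding list at most the 3 genes with the largest ratio among those past 1.5-fold, beside Atf4. Members, lists and rules were chosen with earlier results of these data known. The calls and the limma fit were run on simulated log2 ratios with known changes. These start after normalization, so they do not check background correction, loess or dye. The 11 alternatives were normexp on all spots, no background subtraction, the processed signals, the deposited table, median centring, no detection filter, both channels well above background, the mean of the probes, each replicate left out, and eBayes with an intensity trend. The last changes p-values only, so the other 10 bear on ratios and folds. Leaving out a replicate cannot end a call, since a call needs both arrays.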

Additional observations from a re-analysis of the deposited data

How the results depend on the processing

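Lower calls among the members numbered 10 to 15 under all alternatives run, against 14, and the eIF2B count stayed within 1.5 times throughout. Members called higher numbered 9 with the processed signals, 9 in the deposited table and 14 with median centring, against 3, and 3 to 5 when a replicate was left out. With tested probes averaged per gene, members 2-fold lower numbered 6 against 10. The member median of -0.14 became -0.0457 with normexp fitted on all spots, -0.0454 without background subtraction and 0.12 with median centring. Over all genes, 1.5-fold higher calls went from 1551 to 961 (normexp on all spots), 2699 (processed signals), 2692 (deposited table) and 2916 (median centring), and lower calls from 2293 to 859 (normexp on all spots) and 1493 (median centring). limma's calls went from 10244 to 3270 with normexp on all spots and 17756 without the detection filter. Eef1a1 turned from -1.30 to 0.42 with the processed signals and in the deposited table, where another probe is the brightest. Apart from that, the causes were not tested. Lower calls ended for Eif2b1, Ago2, Eif4e2 and Eif4h with normexp on all spots (-0.68, -0.71, -0.54, -0.59), for Eif3i, Eif4e2 and Eif4h without background subtraction (-0.63, -0.62, -0.57), for Eif2b1, Eif3i, Eif4e2 and Eif4h with median centring (-0.52, -0.46, -0.45, -0.43), for Eif3i with the processed signals (-0.74, 1 array short of the threshold) and for Eef1a1 and Eif4e2 with probes averaged (-0.45, -0.46). Averaging also ended the higher call of Eif1ad (0.42). Processed signals added 6 higher and 2 lower calls, among them Eif2ak3 (1.02) and Eif5a2 (-1.10), and median centring added 11 higher ones.

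Each array holds both genotypes and its ratio is taken within that pair, so the ratios are already paired by array. No dye swap, 1 slide and unnamed animals limit every value; signal over background left 3 members unread.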
